A study of Mus musculus with 9 samples.

Results

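The TNF superfamily ligands, their receptors and the TRAF adaptors were examined in mouse dendritic cells (DC) treated with 1 of 2 inhibitors of histone deacetylases. Members were the genes whose array annotation gave a single symbol beginning with Tnfsf or Tnfrsf and a digit, or the symbol Traf1 to Traf7, Lta, Ltb, Ltbr, Cd27 or Cd70. This gave 37 of the 12393 genes measured, from 54 probe sets (groups of short probes for 1 transcript), and each gene was read from its brightest probe set. They were 10 ligands, 4 receptors with a death domain, 3 decoy receptors, 14 other receptors and 6 TRAF adaptors. Traf3 and the ligands Tnfsf12 and Tnfsf13 are not analysed here.

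The groups were DC treated with butyrate, a fatty acid that gut bacteria release when they ferment fibre, DC treated with trichostatin A (TSA), a hydroxamic acid, and untreated DC, with 3 arrays in each. All 3 groups shared their source: spleen cells of mice aged 6 to 8 weeks that had been given B16 melanoma cells making Flt3L, the growth factor of DC, and from which CD11c-bearing cells were taken on magnetic beads. Strain, sex, dose and duration are not in the labels, nor whether replicates came from separate mice or cultures, so p-values measure only the spread between these samples, which may be technical. The tumour-driven Flt3L and the single-marker bead step limit the cells as a model of steady-state spleen DC. Arrays of 1 group correlated with r of 0.9971 to 0.9985 across genes, and array medians lay between 6.698 and 6.746 on the log2 scale. The DC markers H2-Aa, Cd74, Flt3 and Itgax averaged 14.65, 14.39, 11.02 and 9.24 in untreated DC on that scale, where the lower quartile of all genes was 5.29. The rest of the DC markers ranged from 4.93 (Itgae, below that quartile) and 7.72 (Irf4) to 11.7 (Irf8). Of 11 measured DC markers, 3 rose and 6 fell with butyrate and 0 rose and 6 fell with TSA, and the part of this in the results was not tested.

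TNF ligands are mostly trimers on the cell surface that gather their receptors on a neighbouring cell. Receptors with a death domain can start cell death, whereas most others recruit TRAF proteins, which carry the signal to NF-kB and the MAP kinases. In DC the family works in both directions: receptors such as CD40 and RANK take survival and maturation signals from T cells, and ligands such as OX40L and 4-1BBL costimulate those T cells. Histone deacetylases remove acetyl groups from histones and other proteins.

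With butyrate, 25 of the 37 members changed at an adjusted p under 0.05 in limma's fit across all genes, 8 rising and 17 falling (67.6%, where 58.4% of all genes passed); 5 of the 8 rises turned sign when arrays were set to hybridization spike-in controls. With TSA, 21 changed, 5 rising and 16 falling (56.8%, against 47.3% of all genes). Rises were 21.6% of members with butyrate and 13.5% with TSA, where 33.6% and 26.3% of all genes rose. Falls were 45.9% of members with butyrate and 43.2% with TSA, where 24.8% and 21% of all genes fell. A change of at least 2-fold was reached by 2 risen and 5 fallen members with butyrate (2.74% and 4.6% of all genes). With TSA it was reached by 0 risen and 4 fallen members (2.14% and 3.28% of all genes). The median log2 change of the members was -0.11 with butyrate and -0.13 with TSA, where all genes had medians of 0.08 and 0.03. The 2 comparisons share their untreated arrays, so the values stand side by side here and the likeness of the treatments was not tested. The arrays of the 2 groups did not overlap for 26 members with butyrate and 24 with TSA (all genes: 62.7% and 54.9%). A fall in bulk RNA cannot tell fewer cells of a type from less RNA per cell.

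**Figure D1:**
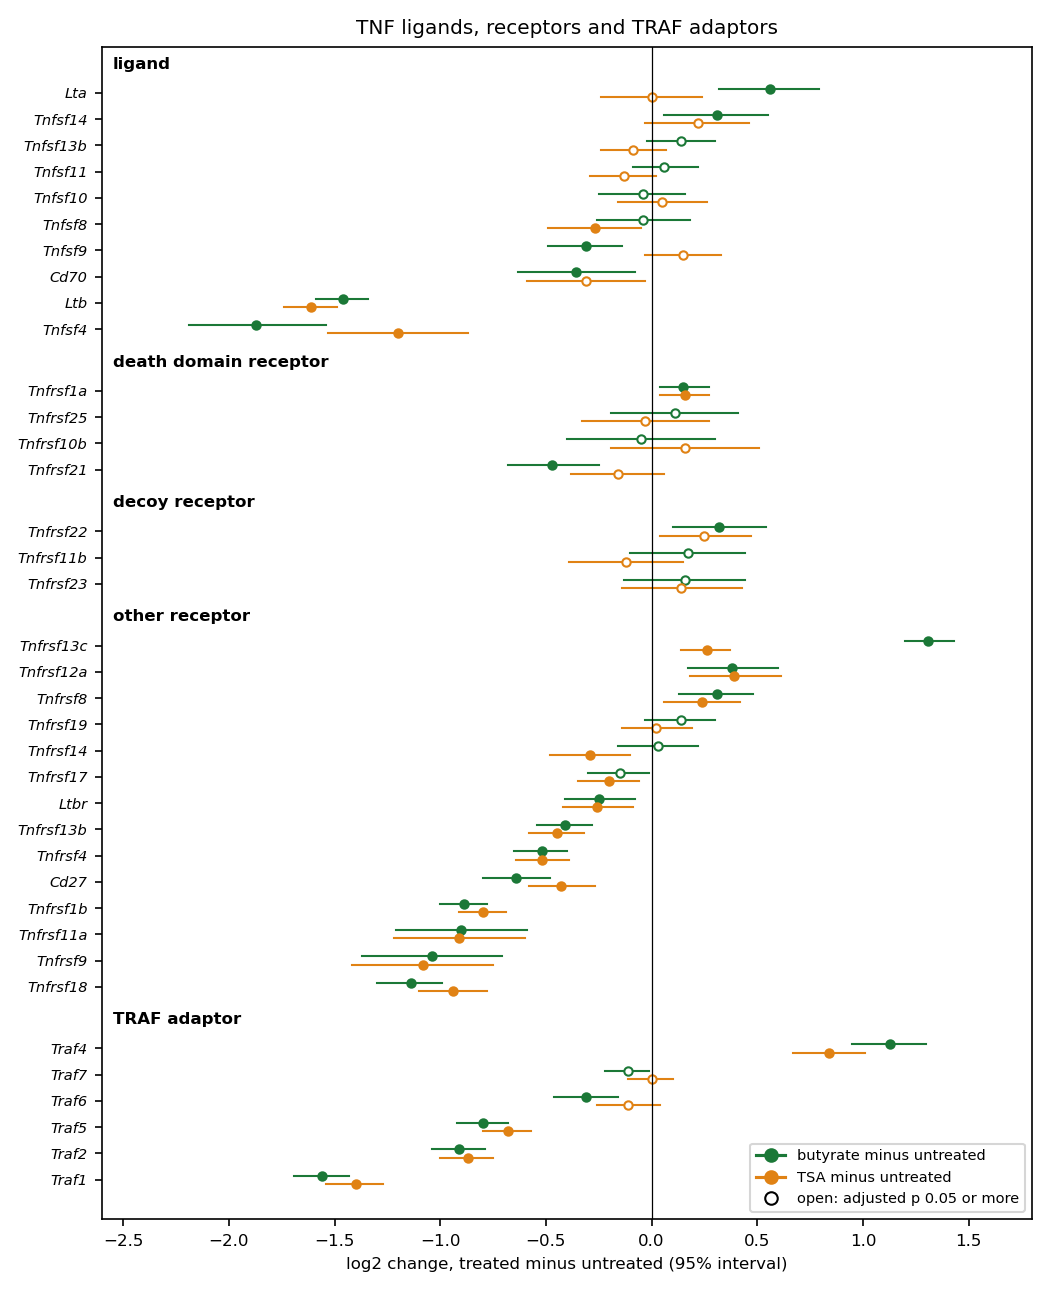
Log2 change of all 37 members against untreated DC (x axis), grouped by role and ordered within a role by the butyrate change; green is butyrate and orange TSA, lines are 95% intervals of limma's fit, and open points did not pass the test. Ltb, Tnfsf4 and Traf1 lie farthest left under both treatments, and Traf4 lies at 1.13 with butyrate and 0.84 with TSA.

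Among the ligands, 2 rose and 4 fell with butyrate, and 0 rose and 3 fell with TSA. Ltb encodes lymphotoxin beta, which pairs with lymphotoxin alpha into a membrane ligand for Ltbr and is needed for lymphoid tissue structure. Its log2 levels were 7.72, 7.68 and 7.80 in butyrate-treated DC, 7.63, 7.62 and 7.49 in TSA-treated DC, and 9.22, 9.20 and 9.17 in untreated DC. Every treated array lay below every untreated one by over 1 log2 unit. The fall was 1.46 ± 0.056 with butyrate (SE, 2.75-fold lower, adjusted p = 1.15e-08) and 1.61 ± 0.056 with TSA (3.06-fold lower, adjusted p = 1.36e-08).

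The 250 bases before the annotated start of Ltb are printed because it is the ligand with the smallest adjusted p; RefSeq gives them on GRCm38.p6 at chr17:35194257-35194506, plus strand, with 63.2% G and C. Capitals mark matches, on either strand, to 5 motifs searched. They were the general NF-kB motif (GGG and CC with any 5 bases between), the stricter GGAANNTCC of the same type, the GC box GGGCGG, the AP-1 type TGANTCA and the TATA box TATAAA.
Ltb: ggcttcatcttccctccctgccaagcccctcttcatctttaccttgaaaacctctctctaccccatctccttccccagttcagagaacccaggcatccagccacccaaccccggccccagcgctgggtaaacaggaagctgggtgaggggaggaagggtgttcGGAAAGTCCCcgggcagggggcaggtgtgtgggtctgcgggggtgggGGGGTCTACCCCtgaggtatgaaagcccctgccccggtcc
The first run of capitals, 87 to 78 bases before the start, matches both NF-kB type motifs, which overlap there. The second holds 3 overlapping matches to the general NF-kB motif between 40 and 29 bases before the start. Of 32851 stretches of this length in RefSeq's table, 45.8% held the general NF-kB motif, 3.59% GGAANNTCC, 32.7% GGGCGG, 12.4% TATAAA and 6.75% TGANTCA. The 31 members with an entry had 35 stretches, of which 23, 1, 14, 4 and 4 held them, and Ltb was the 1 with GGAANNTCC. Cd70, Tnfrsf10b, Tnfrsf11b, Tnfrsf22, Tnfsf4 and Tnfsf9 had no entry.

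Tnfsf4 encodes OX40L, which DC show to T cells that carry OX40. It stood at 6.64, 6.84 and 6.13 in butyrate-treated DC, 7.10, 7.20 and 7.30 in TSA-treated DC, and 8.37, 8.48 and 8.36 in untreated DC. The 3 groups formed 3 separate steps, with the butyrate arrays lowest and most spread. Tnfsf4 fell by 1.87 ± 0.147 with butyrate (3.65-fold lower, adjusted p = 1.71e-06) and by 1.20 ± 0.147 with TSA (2.30-fold lower, adjusted p = 5.47e-05).

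Lta, the soluble lymphotoxin alpha, averaged 6.10 ± 0.19 in butyrate-treated DC, 5.54 ± 0.15 in TSA-treated DC and 5.54 ± 0.12 in untreated DC (SD, n = 3 each). It rose by 0.56 ± 0.107 with butyrate (adjusted p = 0.00121), a call that ended with arrays set to the hybridization spike-ins (0.14, adjusted p = 0.243) or to the poly-A spike-ins, which the Affymetrix protocol adds to the RNA before labelling (0.20, adjusted p = 0.422). Its TSA change was 0.00 (95% interval -0.24 to 0.24, adjusted p = 0.991). Tnf, the other gene of the lymphotoxin locus, lies between Ltb and Lta with 0 protein-coding genes separating it from either in RefSeq's order on chromosome 17. It is the founding cytokine of the family and was no member by symbol. It stood at 8.45, 8.48 and 8.54 in butyrate-treated DC, 7.82, 7.83 and 7.76 in TSA-treated DC, and 7.31, 7.59 and 7.68 in untreated DC. It rose by 0.96 ± 0.084 with butyrate (adjusted p = 3.63e-06) and by 0.28 ± 0.084 with TSA (adjusted p = 0.0196; 0.0558 without TSA array 1 and 0.0593 without TSA array 2). On the hybridization scale the Tnf changes were 0.55 (adjusted p = 0.000105) and 0.26 (adjusted p = 0.0545), and on the poly-A scale 0.61 (adjusted p = 0.00616) and 0.25 (adjusted p = 0.497), with butyrate and TSA in that order.

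A second ligand cluster on chromosome 17 holds Tnfsf9, Cd70 and Tnfsf14, again with 0 coding genes between neighbours. Tnfsf9, the costimulatory ligand 4-1BBL, averaged 8.02 ± 0.07 in butyrate-treated DC, 8.48 ± 0.09 in TSA-treated DC and 8.33 ± 0.15 in untreated DC. It fell by 0.31 ± 0.079 with butyrate (adjusted p = 0.00642), and the TSA change was 0.15 (95% interval -0.03 to 0.33, adjusted p = 0.152). Cd70, the ligand of CD27, averaged 5.11, 5.15 and 5.46 in butyrate-treated, TSA-treated and untreated DC, and fell by 0.36 with butyrate (adjusted p = 0.0325). That call ended when untreated array 2 or 3 or butyrate array 1 or 3 was left out (adjusted p = 0.0524 to 0.116). Tnfsf14, known as LIGHT, rose by 0.31 with butyrate (adjusted p = 0.0337, but -0.11 on the hybridization spike-in scale), and the call ended without any 1 of the 3 butyrate or 3 untreated arrays (0.0513 to 0.0998). Cd70 and Tnfsf14 averaged 5.24 and 5.12 over all arrays, below the lower quartile of all genes (5.29).

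The other 4 ligands had low levels and moved little. Tnfsf8, the ligand of CD30, averaged 5.70, 5.47 and 5.74 in butyrate-treated, TSA-treated and untreated DC and fell by 0.27 with TSA (adjusted p = 0.0436). Only 2 of 9 fits that left out 1 array kept that call, those without untreated array 3 or TSA array 2, and the other 7 gave adjusted p-values of 0.0568 to 0.159. Tnfsf10 (TRAIL, a death ligand), Tnfsf11 (RANKL) and Tnfsf13b (BAFF, a survival factor for B cells) had means of 4.34 to 4.72 in all 3 groups, with changes against untreated DC between -0.13 and 0.14 and no call. All 3 lay below the lower quartile of all genes, where RMA values sit near a floor and understate change.

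Of the 4 receptors with a death domain, 1 rose and 1 fell with butyrate, and 1 rose and 0 fell with TSA. Tnfrsf1a, the receptor for TNF found on most cells, averaged 9.42 ± 0.02 in butyrate-treated DC, 9.42 ± 0.02 in TSA-treated DC and 9.27 ± 0.07 in untreated DC. It rose by 0.15 with butyrate (adjusted p = 0.0226, but -0.26 on the hybridization spike-in scale) and by 0.16 with TSA (adjusted p = 0.0254). The butyrate call ended without untreated array 1 or 3 or butyrate array 1 or 2 (0.0522 to 0.0713), and the TSA call without untreated array 1 or 3 or any TSA array (0.0526 to 0.0819). Tnfrsf21, or DR6, averaged 6.26 ± 0.09 in butyrate-treated DC, 6.57 ± 0.07 in TSA-treated DC and 6.73 ± 0.21 in untreated DC. It fell by 0.47 ± 0.097 with butyrate (adjusted p = 0.00192), and its TSA change was -0.16 (adjusted p = 0.218). A second Tnfrsf21 probe set, nearly as bright (mean 6.46 against 6.52), changed by only -0.17 with butyrate (adjusted p = 0.049). Tnfrsf10b, the receptor for TRAIL, averaged 4.75, 4.96 and 4.80, and Tnfrsf25, known as DR3, averaged 5.61, 5.47 and 5.50 in butyrate-treated, TSA-treated and untreated DC; neither passed the test.

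The decoy receptors bind ligand without passing a signal on. Tnfrsf22 averaged 5.59 ± 0.09 in butyrate-treated DC, 5.52 ± 0.06 in TSA-treated DC and 5.27 ± 0.22 in untreated DC. It rose by 0.32 with butyrate (adjusted p = 0.0171, but -0.09 on the hybridization spike-in scale). Leaving out single arrays gave 0.20 to 0.42, and the call was lost without butyrate array 1 (0.0625). Its TSA change was 0.25 (adjusted p = 0.0557). Tnfrsf23, its neighbour on chromosome 7, averaged 5.12, 5.11 and 4.96, and Tnfrsf11b (osteoprotegerin, the soluble decoy for RANKL) averaged 5.0, 4.71 and 4.83 in butyrate-treated, TSA-treated and untreated DC, without a call.

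Among the 14 other receptors, 3 rose and 8 fell with butyrate, and 3 rose and 10 fell with TSA. Tnfrsf1b, the TNF receptor restricted largely to blood and endothelial cells, stood at 9.72, 9.76 and 9.79 in butyrate-treated DC, 9.88, 9.79 and 9.85 in TSA-treated DC, and 10.58, 10.66 and 10.68 in untreated DC. No treated array reached the untreated range. It fell by 0.89 ± 0.049 with butyrate (1.85-fold lower, adjusted p = 1.35e-07) and by 0.80 ± 0.049 with TSA (1.74-fold lower, adjusted p = 3.8e-07). Tnfrsf8 (CD30), its neighbour on chromosome 4, averaged 5.80 ± 0.07 in butyrate-treated DC, 5.73 ± 0.07 in TSA-treated DC and 5.49 ± 0.16 in untreated DC. It rose by 0.31 with butyrate (adjusted p = 0.00771, but -0.11 on the hybridization spike-in scale) and by 0.24 with TSA (adjusted p = 0.0314). The TSA call ended without untreated array 1 or 3 or TSA array 1 or 2 (0.0511 to 0.106), with a change of 0.15 without untreated array 1.

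Tnfrsf9 encodes CD137, the receptor for the Tnfsf9 ligand, and is induced on activated T cells and DC. Its levels were 7.07, 7.45 and 7.28 in butyrate-treated DC, 7.19, 7.16 and 7.33 in TSA-treated DC, and 7.92, 8.50 and 8.50 in untreated DC. Untreated array 1 lay below the other two but above all treated arrays. It fell by 1.04 ± 0.15 with butyrate (2.05-fold lower, adjusted p = 0.000161) and by 1.08 ± 0.15 with TSA (2.12-fold lower, adjusted p = 0.000135).

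Tnfrsf11a encodes RANK, through which RANKL from T cells prolongs DC survival. It stood at 6.89, 6.74 and 6.88 in butyrate-treated DC, 6.92, 6.74 and 6.81 in TSA-treated DC, and 7.98, 7.88 and 7.34 in untreated DC. Untreated array 3 was the lowest of its group and still above every treated array. The fall was 0.90 ± 0.139 with butyrate (adjusted p = 0.000271) and 0.91 ± 0.139 with TSA (adjusted p = 0.000281).

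Tnfrsf18 (GITR) and Tnfrsf4 (OX40) are T cell costimulatory receptors whose genes neighbour each other on chromosome 4. Tnfrsf18 stood at 7.30, 7.40 and 7.29 in butyrate-treated DC, 7.57, 7.59 and 7.44 in TSA-treated DC, and 8.36, 8.47 and 8.59 in untreated DC. The 3 groups did not overlap, and butyrate was lowest. It fell by 1.14 ± 0.07 with butyrate (2.21-fold lower, adjusted p = 2.76e-07) and by 0.94 ± 0.07 with TSA (1.92-fold lower, adjusted p = 1.45e-06). Tnfrsf4 averaged 7.87 ± 0.01 in butyrate-treated DC, 7.88 ± 0.08 in TSA-treated DC and 8.40 ± 0.07 in untreated DC, a fall of 0.52 ± 0.055 under each treatment on the deposited scale (adjusted p = 1.62e-05 with butyrate, 2.03e-05 with TSA). On the hybridization scale it fell by 0.94 with butyrate and fell by 0.53 with TSA, and the direct difference was -0.41 (adjusted p = 0.000303), which was -0.33 (adjusted p = 0.191) on the poly-A scale.

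Cd27, the receptor for CD70, was dim at 4.33, 4.26 and 4.21 in butyrate-treated DC, 4.59, 4.46 and 4.40 in TSA-treated DC, and 5.02, 4.80 and 4.90 in untreated DC. The untreated arrays were the highest. It fell by 0.64 ± 0.071 with butyrate (adjusted p = 2.24e-05) and by 0.43 ± 0.071 with TSA (adjusted p = 0.000505).

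Tnfrsf13c, Tnfrsf13b and Tnfrsf17 encode the receptors BAFFR, TACI and BCMA, through which BAFF and its relative APRIL act on B cells. Tnfrsf13c stood at 9.11, 9.20 and 9.22 in butyrate-treated DC, 8.12, 8.10 and 8.14 in TSA-treated DC, and 7.92, 7.79 and 7.88 in untreated DC. The butyrate arrays were higher than all others by nearly 1 log2 unit or more, and TSA arrays lay just above untreated ones. It rose by 1.31 ± 0.053 with butyrate (2.49-fold, adjusted p = 1.55e-08) and by 0.26 ± 0.053 with TSA (1.19-fold, adjusted p = 0.00217). Tnfrsf13b averaged 8.32 ± 0.08 in butyrate-treated DC, 8.28 ± 0.07 in TSA-treated DC and 8.72 ± 0.03 in untreated DC, and fell by 0.41 (adjusted p = 0.000145) and 0.45 (adjusted p = 8.44e-05) with the treatments in that order. Tnfrsf17 averaged 4.44, 4.39 and 4.60 in butyrate-treated, TSA-treated and untreated DC. It fell by 0.20 with TSA (adjusted p = 0.0223), a call that ended without untreated array 1 or 3 or TSA array 1 or 2 (0.0562 to 0.0857).

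These receptors and Cd27 are also B or T cell genes, so the B and T cell marker lists stand beside them. Of 9 measured B cell markers, 0 rose and 2 fell with butyrate, and 0 rose and 6 fell with TSA. Their mean log2 level was 6.39 to 6.44 in butyrate-treated DC, 6.15 to 6.19 in TSA-treated DC and 6.51 to 6.58 in untreated DC, and 3 of the 9 lay below the lower quartile of all genes. Spib, a transcription factor of B cells and plasmacytoid DC, averaged 10.49 in butyrate-treated DC, 9.71 in TSA-treated DC and 9.7 in untreated DC. It was the 1 of 6 measured plasmacytoid DC markers that rose with butyrate, by 0.79 (adjusted p = 1.5e-06). The other 5 fell: Ccr9 (-2.38), Klk1 (-1.07), Ly6d (-0.73), Bst2 (-0.57) and Tcf4 (-0.49). Of 8 measured T cell markers, 0 rose and 2 fell with butyrate and 0 rose and 5 fell with TSA, with mean levels of 6.37 to 6.4, 6.22 to 6.32 and 6.81 to 6.95 in butyrate-treated, TSA-treated and untreated DC. All 9 measured macrophage and monocyte markers fell under each treatment, with mean levels of 7.80 to 7.99, 8.20 to 8.34 and 9.10 to 9.23 in the same order. Of 6 plasmacytoid DC markers, 1 (Spib) rose and 5 fell with butyrate and 0 rose and 4 fell with TSA (levels of 9.25 to 9.4, 9.49 to 9.52 and 10.05 to 10.11). Of 8 neutrophil markers, 2 rose and 5 fell with butyrate and 0 rose and 6 fell with TSA (10.67 to 10.71, 10.43 to 10.52 and 11.16 to 11.26). Of 7 NK cell markers, 1 rose and 2 fell with butyrate and 0 rose and 3 fell with TSA (6.53 to 6.57, 6.71 to 6.8 and 6.95 to 7.02). Of 4 erythroid markers, 1 rose and 2 fell with butyrate and 0 rose and 3 fell with TSA (8.18 to 8.24, 8 to 8.08 and 8.41 to 8.52). Of 7 B16 melanoma markers, 3 rose and 1 fell with butyrate and 1 rose and 2 fell with TSA (5.56 to 5.63, 5.46 to 5.59 and 5.6 to 5.65). Of these 7, 4 lay below the lower quartile of all genes. The part of other cells in the rise of Tnfrsf13c and in the falls of the members was not tested.

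Upstream stretches are shown for Tnfrsf9, a receptor gene at least 2-fold lower under each treatment, with its 2 RefSeq starts, and for Tnfrsf13c, the receptor gene with the largest rise. They lie at chr4:150919905-150920154 and chr4:150927749-150927998 (plus strand) and chr15:82224381-82224630 (minus strand), in the order printed, with motif matches in capitals.
Tnfrsf9, start 1: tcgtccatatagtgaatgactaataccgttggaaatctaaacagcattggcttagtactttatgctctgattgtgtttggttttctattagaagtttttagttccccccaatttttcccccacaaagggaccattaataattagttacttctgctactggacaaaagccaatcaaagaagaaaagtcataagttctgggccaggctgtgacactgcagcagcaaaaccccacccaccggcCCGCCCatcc
Tnfrsf9, start 2: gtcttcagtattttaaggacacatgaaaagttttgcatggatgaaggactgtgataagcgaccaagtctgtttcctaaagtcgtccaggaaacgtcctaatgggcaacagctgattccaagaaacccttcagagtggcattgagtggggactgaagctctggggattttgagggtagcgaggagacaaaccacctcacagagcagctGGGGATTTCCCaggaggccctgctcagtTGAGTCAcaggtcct
Tnfrsf13c: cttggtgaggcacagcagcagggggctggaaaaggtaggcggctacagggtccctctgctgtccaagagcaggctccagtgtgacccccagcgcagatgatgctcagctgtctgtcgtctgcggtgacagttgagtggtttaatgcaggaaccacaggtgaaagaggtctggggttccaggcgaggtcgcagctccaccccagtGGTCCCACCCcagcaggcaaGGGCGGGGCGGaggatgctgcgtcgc
Start 1 of Tnfrsf9, with 43.2% G and C, holds a GC box on the strand opposite to the one printed, 10 to 5 bases before the start. Start 2, with 49.6%, holds 2 overlapping matches to the general NF-kB motif between 43 and 33 and TGAGTCA at 15 to 9 bases before the start. The Tnfrsf13c stretch, with 63.2%, holds 1 match to that motif at 46 to 37 and 2 overlapping GC boxes between 26 and 16 bases before the start. These are matches of letters only.

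Of the remaining receptors, Ltbr, the lymphotoxin beta receptor, averaged 8.03 ± 0.07 in butyrate-treated DC, 8.01 ± 0.14 in TSA-treated DC and 8.27 ± 0.05 in untreated DC. It fell by 0.25 with butyrate (adjusted p = 0.0146, 0.0511 without butyrate array 2) and by 0.26 with TSA (adjusted p = 0.0137, 0.06 without TSA array 2). Tnfrsf14 (HVEM, which binds LIGHT) averaged 5.73 ± 0.05, 5.41 ± 0.15 and 5.70 ± 0.12 in butyrate-treated, TSA-treated and untreated DC. It fell by 0.29 with TSA (adjusted p = 0.0153), but not without untreated array 3 (0.0569) or TSA array 1 (0.0618), and its butyrate change was 0.03 (adjusted p = 0.798). Tnfrsf12a (Fn14, the TWEAK receptor) averaged 7.31 ± 0.15 in butyrate-treated DC, 7.32 ± 0.06 in TSA-treated DC and 6.93 ± 0.18 in untreated DC, and rose by 0.38 with butyrate (adjusted p = 0.00643, but -0.03 on the hybridization spike-in scale) and by 0.39 with TSA (adjusted p = 0.00646). Tnfrsf19 (TROY) averaged 4.69, 4.58 and 4.56 with no call.

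Of the 6 TRAF adaptors, 1 rose and 4 fell with butyrate, and 1 rose and 3 fell with TSA. Traf1, an adaptor that NF-kB induces and that binds TRAF2, stood at 9.41, 9.49 and 9.40 in butyrate-treated DC, 9.65, 9.61 and 9.53 in TSA-treated DC, and 10.91, 10.99 and 11.09 in untreated DC. Untreated arrays were over 1 log2 unit higher than all others. It fell by 1.56 ± 0.06 with butyrate (2.95-fold lower, adjusted p = 1.15e-08) and fell by 1.40 ± 0.06 with TSA (2.64-fold lower, adjusted p = 4.09e-08).

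Traf2, which joins TNF receptors to the ubiquitin ligases of the IAP family, stood at 7.92, 7.86 and 7.89 in butyrate-treated DC, 8.03, 7.84 and 7.92 in TSA-treated DC, and 8.78, 8.84 and 8.79 in untreated DC. The treated groups overlapped each other and lay below the untreated one. It fell by 0.91 ± 0.056 with butyrate (1.88-fold lower, adjusted p = 2.89e-07) and by 0.87 ± 0.056 with TSA (1.83-fold lower, adjusted p = 5.24e-07). Traf5, a close relative of Traf2, stood at 7.95, 8.06 and 7.97 in butyrate-treated DC, 8.10, 8.14 and 8.10 in TSA-treated DC, and 8.72, 8.84 and 8.83 in untreated DC. Again the untreated arrays were the 3 highest. It fell by 0.80 ± 0.053 with butyrate (adjusted p = 4.64e-07) and by 0.68 ± 0.053 with TSA (adjusted p = 1.89e-06).

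Traf4, which is best known from epithelia and the nervous system, went the other way. It stood at 8.01, 7.99 and 8.11 in butyrate-treated DC, 7.79, 7.68 and 7.77 in TSA-treated DC, and 6.73, 6.99 and 7.0 in untreated DC. The 3 groups did not overlap, with butyrate highest. It rose by 1.13 ± 0.076 with butyrate (2.18-fold, adjusted p = 5.79e-07) and by 0.84 ± 0.076 with TSA (1.79-fold, adjusted p = 6.47e-06). Its upstream stretch at chr11:78165551-78165800 (minus strand, 64.8% G and C) is shown because Traf4 was the TRAF that rose.
Traf4: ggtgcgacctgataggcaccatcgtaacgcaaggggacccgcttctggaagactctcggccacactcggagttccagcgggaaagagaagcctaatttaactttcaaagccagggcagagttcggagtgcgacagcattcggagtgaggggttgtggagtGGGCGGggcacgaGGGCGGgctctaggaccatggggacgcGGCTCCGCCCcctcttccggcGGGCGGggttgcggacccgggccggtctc
Capitals mark 4 GC boxes, at 90 to 85, 77 to 72, 46 to 41 and 29 to 24 bases before the start, that at 46 to 41 on the strand opposite to the one printed and inside a match to the general NF-kB motif at 50 to 41. The stretches of Traf1 and Tnfrsf18 held none of the 5 motifs.

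Traf6, the TRAF shared with the Toll-like receptors and CD40, averaged 8.14 ± 0.13 in butyrate-treated DC, 8.34 ± 0.02 in TSA-treated DC and 8.45 ± 0.07 in untreated DC. It fell by 0.31 ± 0.067 with butyrate (adjusted p = 0.00272), and its TSA change was -0.11 (95% interval -0.26 to 0.04, adjusted p = 0.224). Traf7 averaged 8.66, 8.77 and 8.77 in butyrate-treated, TSA-treated and untreated DC, with changes of -0.11 (adjusted p = 0.0658) and 0.00 (adjusted p = 0.959).

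**Figure D2:**
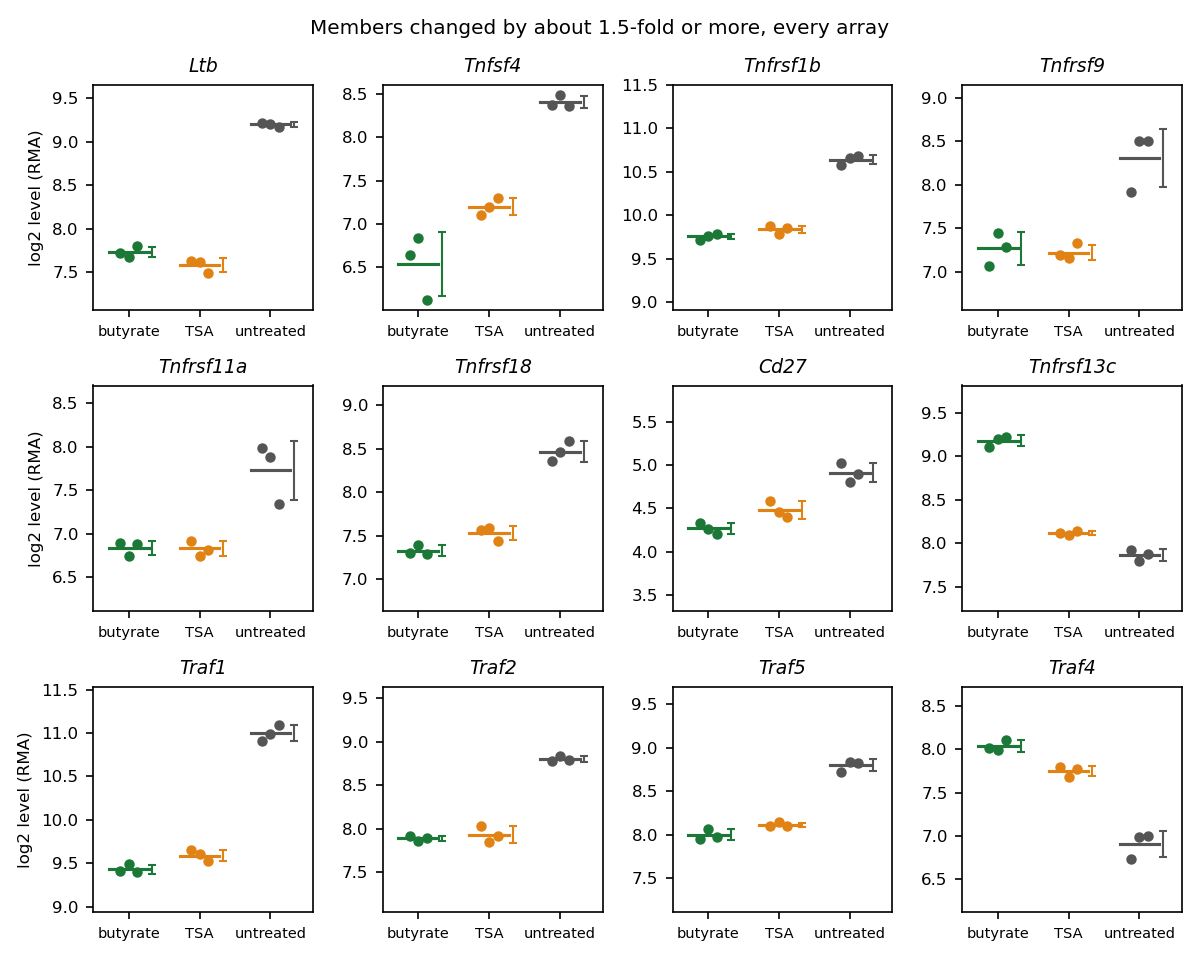
Log2 level on every array (points) for the 12 members that changed by about 1.5-fold or more in a comparison; bars are group means, whiskers SD (n = 3), and each panel spans the same number of log2 units. Tnfrsf13c and Traf4 are the panels in which treated arrays lie above untreated ones.

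Butyrate was also compared with TSA directly. Here 11 members differed, 5 higher and 6 lower with butyrate (29.7%, where 35.9% of all genes passed, 15.9% higher and 20% lower), and the arrays did not overlap for 18 members (50.3% of all genes). The 5 higher ones were Tnfrsf13c, Lta, Tnfrsf14, Traf4 and Tnfsf13b, of which Tnfrsf14, Traf4 and Tnfsf13b turned sign on the hybridization spike-in scale, and the 6 lower ones Tnfsf4, Tnfsf9, Tnfrsf21, Cd27, Tnfrsf18 and Traf6. Doses and times are not in the labels, so they may not match between the treatments.

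Tnfrsf13c had the largest difference of the 37, 1.06 ± 0.053 higher with butyrate (2.08-fold, adjusted p = 4.31e-06), the 38th largest by size among all 12393 genes, of which 0.0888% were at least 2-fold higher. No member was at least 2-fold lower (0.29% of all genes). On the hybridization and poly-A spike-in scales it was 0.66 (adjusted p = 1.13e-06) and 0.73 (adjusted p = 0.00217), under 2-fold. Lta was 0.56 higher (adjusted p = 0.00292), but did not pass on either spike-in scale (0.16, adjusted p = 0.182, and 0.23, adjusted p = 0.357). Tnfsf4 was 0.66 ± 0.147 lower (adjusted p = 0.00621) and Tnfsf9 was 0.46 ± 0.079 lower (adjusted p = 0.00151). The calls of Tnfrsf13c, Lta, Tnfsf4 and Tnfsf9 held in all 9 fits that left out 1 array; the lowest butyrate array of Tnfsf4 took its difference to -0.46 when left out (adjusted p = 0.00335).

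The other 7 calls did not hold in every such fit. Traf4 was 0.29 higher with butyrate (adjusted p = 0.0151), but had adjusted p = 0.0543 without TSA array 2 and 0.05 without butyrate array 3. Tnfrsf14 was 0.32 higher (0.0152), with 0.0578 without TSA array 1. Tnfsf13b was 0.23 higher (0.0315), and without any TSA array or butyrate array 2 or 3 gave 0.0673 to 0.106. Among the lower ones, Tnfrsf21 (-0.31, 0.0314) and Cd27 (-0.22, 0.0379) lost their call without TSA array 1 or 2 or butyrate array 2 or 3 (0.0652 to 0.135). Tnfrsf18 (-0.20, 0.0472) lost it without untreated array 2, TSA array 1 or 2 or butyrate array 1 or 3 (0.0624 to 0.137), and Traf6 (-0.20, 0.0425) without untreated array 2, any TSA array or butyrate array 1 or 2 (0.0564 to 0.136).

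Several members that fell under each treatment did not pass the direct test on the deposited scale. The difference lay within -0.30 to 0.32 for Tnfrsf11a, -0.29 to 0.38 for Tnfrsf9, -0.16 to 0.09 for Traf2 and -0.19 to 0.03 for Tnfrsf1b (95% intervals, butyrate minus TSA). For Ltb the interval was 0.03 to 0.28, with an adjusted p of 0.0579. On the hybridization scale all 5 were lower with butyrate: Tnfrsf11a at -0.39 (adjusted p = 0.00504), Tnfrsf9 at -0.36 (0.0244), Traf2 at -0.44 (0.000148), Tnfrsf1b at -0.48 (6.73e-05) and Ltb at -0.25 (0.0146). Of all 12393 genes, 10047 were called lower with butyrate on that scale. On the poly-A scale none of the 5 passed (adjusted p = 0.104 to 0.471). The second probe set of Tnfrsf11a was lower with butyrate as deposited (-0.25, adjusted p = 0.0139).

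**Figure D3:**
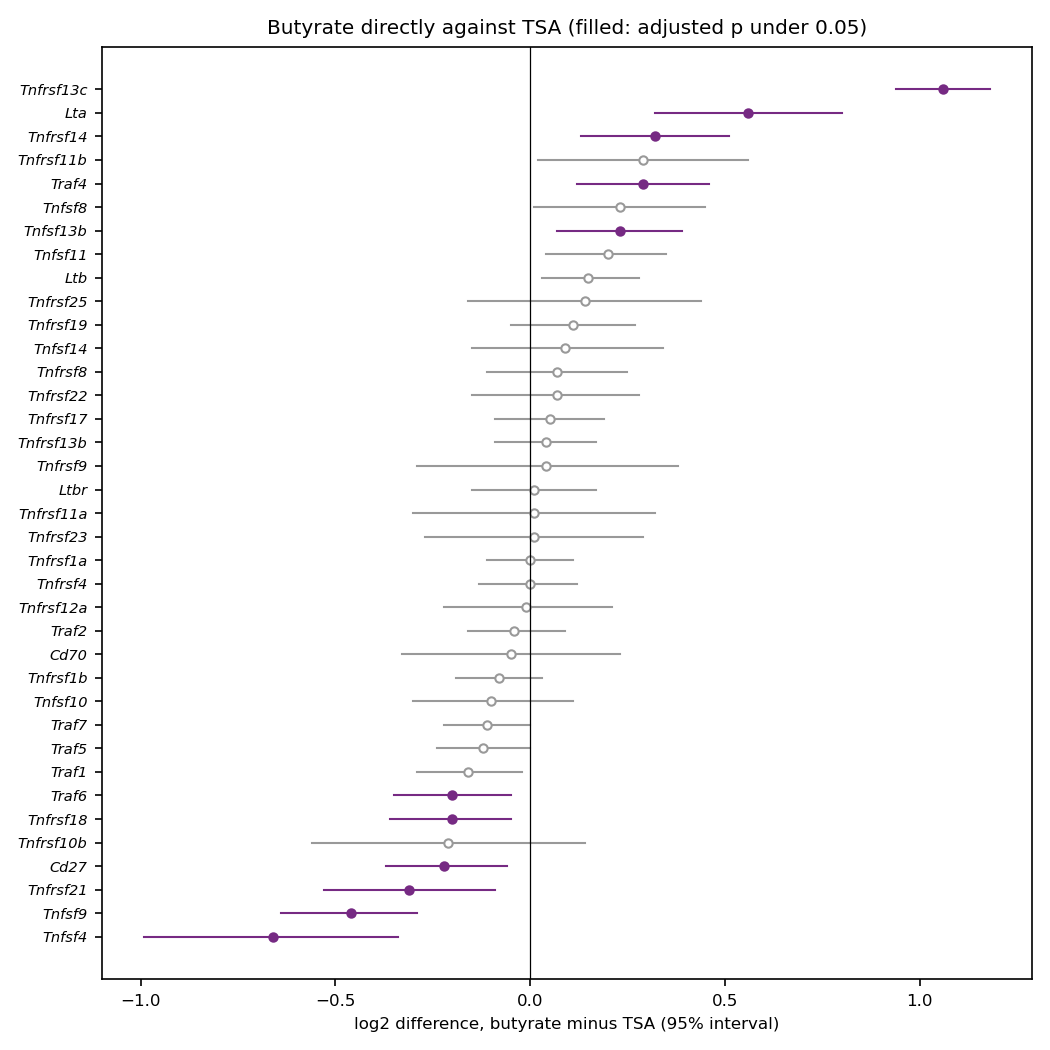
Log2 difference between butyrate-treated and TSA-treated DC (x axis) for the 37 members, ordered by size, with 95% intervals of limma's fit; filled points passed the test. Tnfrsf13c lies alone at 1.06, and Tnfsf4 is lowest at -0.66.

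Other genes of the pathway were read from a list of 46 symbols, of which 39 were measured. With butyrate 7 rose and 22 fell (74.4%, where 58.4% of all genes passed, 33.6% higher and 24.8% lower). With TSA 5 rose and 24 fell (74.4%, where 47.3% of all genes passed, 26.3% higher and 21% lower). In butyrate against TSA 10 were higher and 10 lower (51.3%, where 35.9% of all genes passed, 15.9% higher and 20% lower). Relb, the partner of p52 in the non-canonical NF-kB pathway, stood at 8.97, 9.06 and 8.98 in butyrate-treated DC, 9.21, 9.10 and 9.14 in TSA-treated DC, and 11.38, 11.36 and 11.41 in untreated DC. It fell by 2.38 ± 0.049 with butyrate (5.20-fold lower, adjusted p = 5.01e-10) and fell by 2.24 ± 0.049 with TSA (4.71-fold lower, adjusted p = 1.09e-09). Nfkb2, which encodes p100 and p52, fell by 0.95 and 0.93 with butyrate and TSA (adjusted p = 8.27e-08 and 1.48e-07).

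Cd40, the receptor through which helper T cells license DC, averaged 8.87 ± 0.05 in butyrate-treated DC, 8.74 ± 0.07 in TSA-treated DC and 10.24 ± 0.04 in untreated DC, falling by 1.38 (adjusted p = 1.2e-08) and 1.5 (adjusted p = 1.56e-08). Cflar, the caspase-8 inhibitor cFLIP, fell by 1.90 with butyrate and fell by 1.73 with TSA (adjusted p = 4.3e-09 and 1.48e-08). Ikbkg (NEMO, the regulatory part of the IKK complex) fell by 1.34 and 1.31, Birc3 (cIAP2) by 0.99 and 0.81, Tnfaip3 (A20, which ends NF-kB signalling) by 0.89 and 0.72, and Tank, a TRAF-binding protein, by 0.86 and 0.82, all with adjusted p under 0.05. Ripk3, the kinase of necroptosis, rose by 0.74 with butyrate and 0.90 with TSA (adjusted p = 2.93e-07 and 1.07e-07). Its butyrate change was 0.32 on the hybridization scale (adjusted p = 0.00152) and 0.38 on the poly-A scale (adjusted p = 0.111). With TSA it was 0.89 and 0.88 on these scales (adjusted p = 6.49e-09 and 6.34e-05). Fas changed by -0.14 with butyrate (adjusted p = 0.0677) and rose by 0.16 with TSA (adjusted p = 0.0393), a call that ended in 6 of 9 fits without 1 array (0.0513 to 0.121): those without any untreated array, TSA array 2 or 3, or butyrate array 2. Fasl and Cd40lg, ligands made mainly by T cells, passed no test with all 9 arrays on the deposited scale. On the hybridization scale Fas, Fasl and Cd40lg changed by -0.55, -0.57 and -0.38 with butyrate (adjusted p = 2.21e-05, 1.18e-05 and 0.00382). On the poly-A scale they changed by -0.49, -0.51 and -0.32 (adjusted p = 0.0338, 0.0255 and 0.192).

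For 13 members other probe sets of the same gene could be set beside the brightest. Tnfrsf9 had a second one that fell by 2.32 with butyrate (adjusted p = 1.16e-07) and fell by 2.04 with TSA (adjusted p = 3.88e-07), and a dimmer further one that rose by 0.21 with butyrate (adjusted p = 0.0174) and changed by 0.02 with TSA (adjusted p = 0.858). It was the 1 member with called probe sets of opposite sign. A second probe set of Tnfrsf11a fell by 1.68 with butyrate and 1.43 with TSA (adjusted p = 1.75e-08 and 8.25e-08), and that of Traf4 rose by 0.64 and 0.46 (adjusted p = 0.00781 and 0.0449). That of Tnfrsf1b fell by 0.36 and 0.35 (adjusted p = 0.0142 and 0.0184). That of Tnfrsf21 gave -0.08 in butyrate against TSA (adjusted p = 0.398), where the brightest gave -0.31 (adjusted p = 0.0384). Both dimmer probe sets of Traf6 fell with TSA, by 0.39 (adjusted p = 0.00392) and 0.40 (adjusted p = 0.00306), where the brightest did not pass. A second probe set of Tnfsf11 fell by 0.23 with butyrate (adjusted p = 0.0162) and fell by 0.21 with TSA (adjusted p = 0.0328), and the dimmest of Tnfrsf22 rose by 0.46 with TSA (adjusted p = 0.00275), again where the brightest did not pass.

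**Figure D4:**
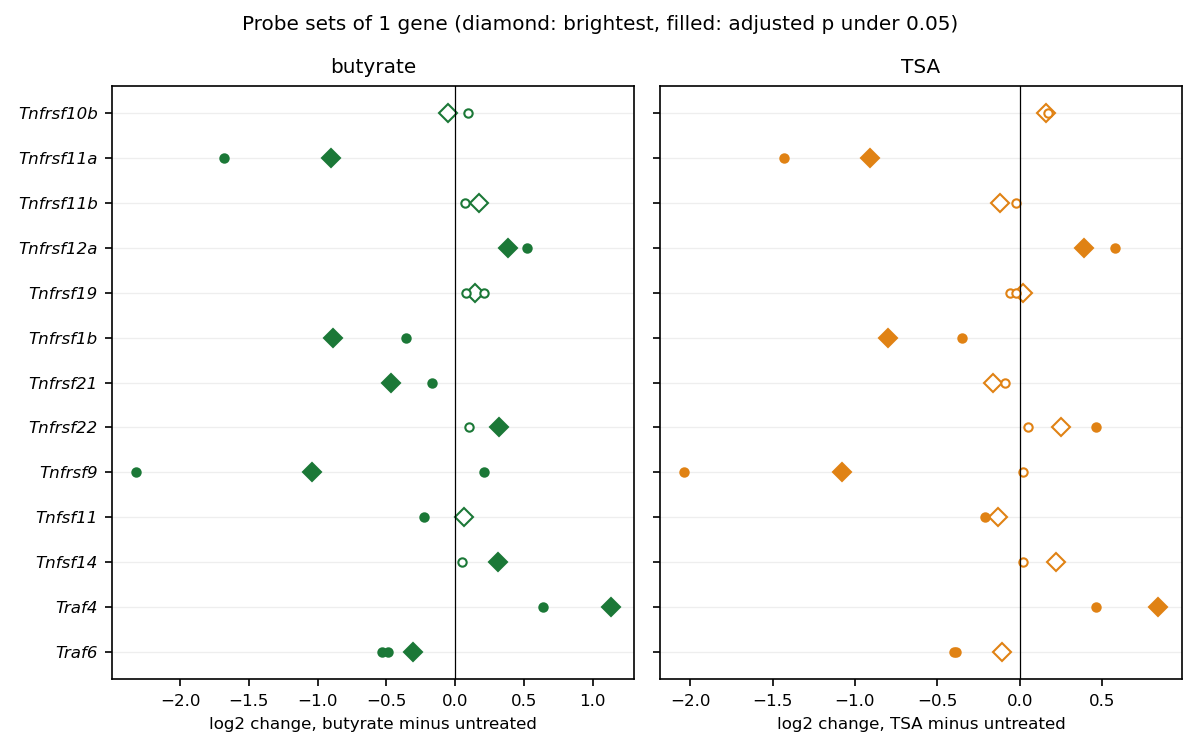
Log2 change of every probe set of the 13 members that have several, butyrate minus untreated on the left and TSA minus untreated on the right; diamonds are the brightest probe set and filled symbols passed the test over all probe sets. The probe sets of Tnfrsf9 spread from -2.32 to 0.21 with butyrate.

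RMA sets all arrays to 1 distribution, so the changes are relative to the other genes of an array. The hybridization spike-ins read here were the 7 probe sets with names beginning AFFX-Bio. They measure bacterial control transcripts that the Affymetrix protocol adds to each sample just before hybridization. They averaged 10.78 ± 0.06 on the butyrate arrays, 10.38 ± 0.03 on the TSA arrays and 10.37 ± 0.08 on the untreated ones (SD, n = 3). The butyrate arrays were 0.415 above the untreated ones and the TSA arrays 0.014 (exact two-sided permutation p = 0.1, the smallest that 3 against 3 allows, and 0.8). With each array set to these spike-ins, the median of all genes moved from 0.085 to -0.331 with butyrate, and the share of called genes that were higher moved from 57.5% to 9.97%. On that scale 2 members rose and 28 fell with butyrate, and 3 rose and 16 fell with TSA. Of all 12393 genes, 932 rose and 8417 fell with butyrate (75.4% called), and 2685 rose and 2354 fell with TSA (40.7%). Tnfrsf13c rose by 0.90 (adjusted p = 4.42e-09) and Traf4 by 0.71 (adjusted p = 2.78e-06), whereas Lta changed by 0.14 (adjusted p = 0.243). The other 5 members that rose with butyrate on the deposited scale, Tnfrsf12a, Tnfrsf8, Tnfrsf22, Tnfsf14 and Tnfrsf1a, had changes of -0.03 to -0.26. Setting arrays to these spike-ins takes 0.415 from the butyrate change of every gene. The 17 falls therefore had to keep their sign and grow, which adds no support for them. All 17 kept their call. The 9 smallest falls grew by over 1.5 times: Cd27 (-1.06), Cd70 (-0.77), Ltbr (-0.66), Tnfrsf13b (-0.83), Tnfrsf21 (-0.88), Tnfrsf4 (-0.94), Tnfsf9 (-0.73), Traf5 (-1.22) and Traf6 (-0.72). With TSA, 18 of 21 calls held on the hybridization scale, those of Tnfrsf17, Tnfrsf1a and Tnfrsf8 ending. On the poly-A scale 11 of 21 held. The poly-A spike-ins averaged 8.91 ± 0.1, 8.59 ± 0.14 and 8.56 ± 0.31 on the butyrate, TSA and untreated arrays (SD, n = 3). Their TSA shift was only 0.027, but their spread between arrays then enters every gene. Cd27 changed by -0.45 with TSA there, against -0.43 as deposited, but its SE went from 0.071 to 0.192 (adjusted p = 0.0812). In butyrate against TSA, the hybridization and poly-A scales likewise take 0.401 and 0.328 from every difference, so the 6 lower members could only move lower. They passed on both scales, Tnfsf4 with -1.06 and -0.99.

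**Figure D5:**
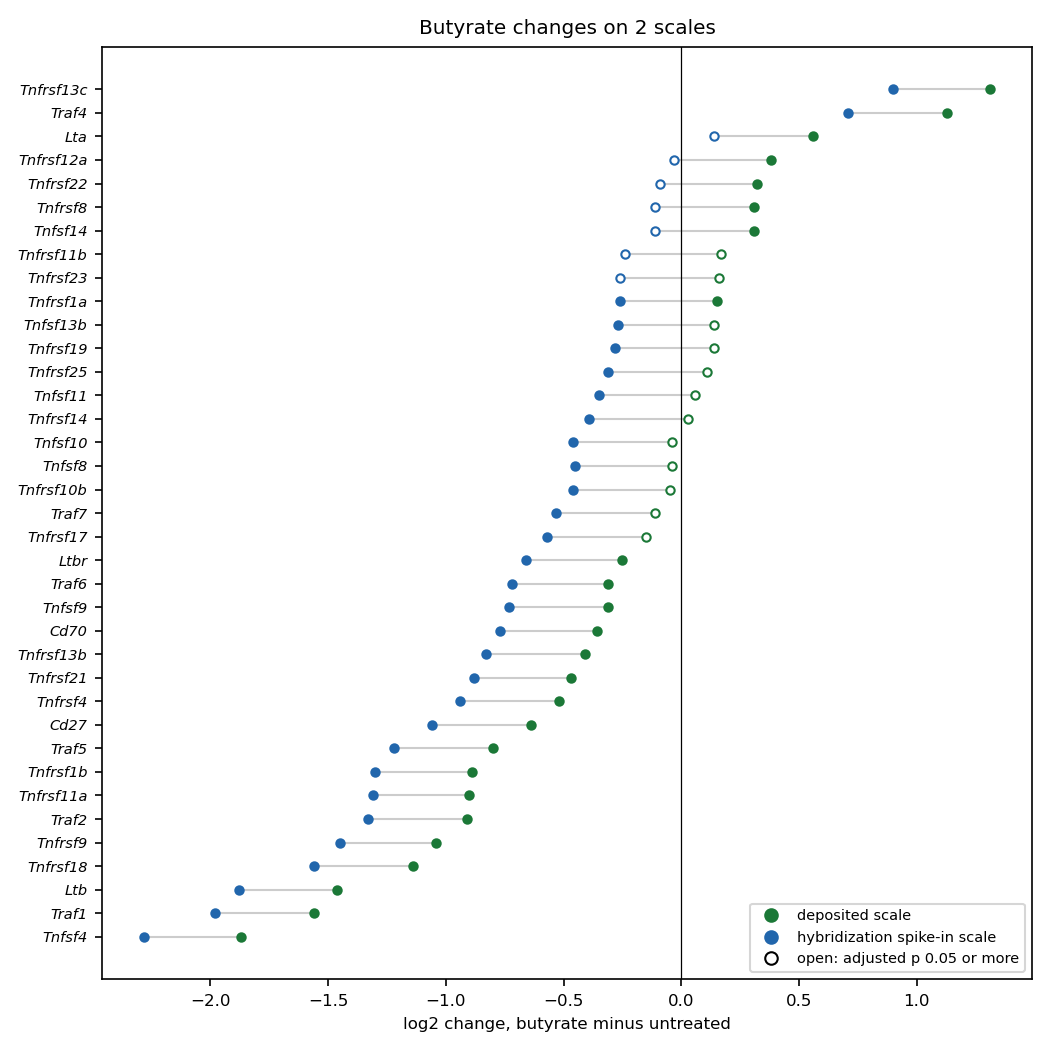
Log2 change with butyrate against untreated DC for the 37 members on the deposited scale (green) and with arrays set to the hybridization spike-ins (blue); filled points passed the test. Tnfrsf13c and Traf4 stay on the right of 0 with filled points on both scales.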

How the data were processed

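RNA of 9 samples was hybridized to 1-colour Affymetrix arrays. The deposited values are log2 levels of 22690 probe sets, made by the authors with RMA (background correction, quantile normalization and a summary over probes) per the submitters' processing notes; the program is not given in the sources used here. Of these probe sets, 64 were controls, 20380 had 1 symbol, 691 several and 1555 none. Each of 12393 genes was represented by its single-symbol probe set with the highest mean.

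Group means were estimated from the 9 arrays together in limma 3.58.1 (lmFit, eBayes; R 4.3.3; 6 residual and 3.9 prior degrees of freedom). P-values were adjusted by Benjamini-Hochberg over all genes, or over all single-symbol probe sets where probe sets are compared, and called under 0.05. Errors of changes are limma's SE. The members and lists were chosen with earlier results of these data known. Members are given by array where a called change reached 0.58 on the log2 scale without overlap of the arrays. Pathway genes are named as the 10 largest called changes plus Tnf, Fas, Fasl, Cd40 and Cd40lg. Data were simulated for 12393 genes with independent noise, of which 200 were changed. In them 100% of genes changed by 1 and 85% changed by 0.5 were recovered for butyrate against untreated, with 13 false calls. The real fit called 7241 genes with butyrate, so these figures do not give its power or its number of false calls. Alternatives were other normalization, probe set choice, level filter, variance trend, group choice, replicate block and single arrays left out. The number of arrays limits the precision. Same-numbered arrays of different groups deviated with correlations of -0.12 to 0.21, and differently numbered ones with -0.246 to 0.157. With so few arrays per group, these overlapping ranges cannot decide whether same-numbered arrays shared a mouse or preparation.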

Additional observations from a re-analysis of the deposited data

How the results depend on the processing

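With single arrays left out, the number of members called was 22 to 26 for butyrate against untreated (25 with all arrays), 16 to 21 for TSA against untreated (21) and 5 to 13 for butyrate against TSA (11). Of all genes, 52.9% to 58.1%, 43% to 47.3% and 27.4% to 36.1% were called in these fits, in the same order. Members higher and lower ranged over 6 to 8 and 16 to 18 with butyrate, 3 to 6 and 13 to 15 with TSA, and 3 to 6 and 2 to 7 in butyrate against TSA. Pathway genes called were 27 to 29, 24 to 29 and 14 to 20 in the same comparisons; higher ones were 6 to 8, 3 to 5 and 9 to 11, and lower ones 21 to 23, 21 to 24 and 4 to 10. Calls held in all 9 such fits for 20 of 25, 15 of 21 and 4 of 11 members.

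Replicate numbers as a block gave 26 members called with butyrate, 21 with TSA and 10 in butyrate against TSA (all genes: 57.2%, 46.3% and 33.2%). Among genes above the median level, which kept 19 of the 37 members, 4 members rose with butyrate and 3 were higher in butyrate than in TSA. Of all 6196 genes above that level, 2472 rose and 2513 fell with butyrate (80.5% called). In butyrate against TSA 1284 of them were higher and 2405 lower (59.5%). A further quantile normalization left 6 pathway genes lower in butyrate than in TSA, where 10 were lower as deposited (all genes: 2124, and 2480 as deposited). The mean over probe sets turned Nfkb2 in butyrate against TSA to 0.15, and the cause was not tested. A further 96 values differed in sign from those reported without passing the test in either fit.

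The spike-in scales moved most counts, because a constant of each array then enters every gene. Of the members, 2 rose and 28 fell with butyrate on the hybridization scale and 2 rose and 19 fell on the poly-A scale. Of all genes 75.4% and 33.3% were called there, 932 and 548 rising and 8417 and 3581 falling. With TSA 3 rose on the hybridization scale, and on the poly-A scale 1 rose and 10 fell (11 called). Of all genes 40.7% and 20.4% were called with TSA on these scales, 2685 and 1180 rising and 2354 and 1349 falling. In butyrate against TSA 1 was higher and 30 lower (31 called) on the hybridization scale, and 1 was higher on the poly-A scale. For all genes the called shares were 81.8% and 22.6%, with 93 and 19 higher and 10047 and 2782 lower. Of pathway genes, 3 rose with butyrate and 3 with TSA on the hybridization scale. On the poly-A scale 1 rose with butyrate, and with TSA 1 rose and 12 fell (13 called). In butyrate against TSA 1 pathway gene was higher and 30 lower (31 called) on the hybridization scale, and 0 were higher of 11 called on the poly-A scale.

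Changes with butyrate that turned sign on the hybridization scale were Tnfrsf12a (-0.03), Tnfrsf14 (-0.39), Tnfrsf19 (-0.28), Tnfrsf1a (-0.26), Tnfrsf22 (-0.09), Tnfrsf25 (-0.31), Tnfrsf8 (-0.11), Tnfsf11 (-0.35), Tnfsf13b (-0.27), Tnfsf14 (-0.11) and Cd40lg (-0.38). On the poly-A scale they were Tnfrsf1a (-0.20), Tnfrsf22 (-0.03), Tnfrsf8 (-0.05) and Tnfsf14 (-0.05). In butyrate against TSA, the hybridization scale turned Ltb (-0.25), Ltbr (-0.39), Tnfrsf11a (-0.39), Tnfrsf13b (-0.36), Tnfrsf14 (-0.08), Tnfrsf17 (-0.35), Tnfrsf19 (-0.29), Tnfrsf22 (-0.33), Tnfrsf23 (-0.39), Tnfrsf25 (-0.26), Tnfrsf8 (-0.33), Tnfrsf9 (-0.36), Tnfsf11 (-0.20), Tnfsf13b (-0.17), Tnfsf14 (-0.31), Traf4 (-0.11) and Cd40 (-0.28). The poly-A scale turned Tnfrsf14 (-0.01), Tnfsf13b (-0.10) and Traf4 (-0.04). Which scale is nearer to RNA per cell was not tested. Of the 11 members with means below the lower quartile of all genes, 3 were called with butyrate and 2 with TSA. Values near the floor limit what could be seen there.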
